A study of Rattus norvegicus with 24 samples.

Results

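Nr4a2, an orphan nuclear receptor gene, was described in the rat dorsal striatum together with 5 genes chosen because they are used as markers of the claustrum or the deep cortex or belong to the same receptor family. The 6 genes were Nr4a2, Nr4a3, Ntng2, Gnb4, Cplx3 and Synpr, found by gene symbol in the deposited annotation of the array, where each symbol stood on 1 transcript cluster. They were 6 of the 68842 transcript clusters measured. Nr4a2 was chosen by its measured signal, which was known to be higher in 1 group of shocked saline rats (YSS) than in control rats (CT) of this same series, so that difference is given below as a description with no test. The question asked of the other genes was whether they followed Nr4a2 from rat to rat.

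RNA of the dorsal striatum was measured in 24 male Sprague-Dawley rats, with 1 Affymetrix rat transcriptome array per rat. Control rats (CT, n = 6) self-administered saline and received no footshock. METH rats self-administered methamphetamine, a psychostimulant, and their lever presses for the drug were then punished with footshocks. They were divided after the fact, by their own response to the shocks, into shock-resistant rats (SR, n = 6), which went on taking the drug, and shock-sensitive rats (SS, n = 6), which cut their intake. Yoked rats took no METH. They were given saline and received, whatever they did, the shocks earned by an SR rat (YSR, n = 3) or an SS rat (YSS, n = 3). All groups had intravenous catheters and lever training, were tested for cue-driven lever pressing without drug during withdrawal, and were killed about a month after the last shock. The age of the rats is not given in the sources used here. The SR and SS rats differ in drug intake as well as in shocks received, and the yoked groups differ from CT in the shocks and in the saline infusions that came with them. Precision was limited by the number of arrays, and p-values describe the spread between these rats.

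Nr4a2 encodes a transcription factor (Nurr1) that is classed as an orphan receptor and is needed for the formation and upkeep of midbrain dopamine neurons. In the rodent forebrain it is also a marker of the claustrum, a thin sheet of mostly glutamatergic neurons that lies between the striatum and the insular cortex, of the neighbouring endopiriform nucleus and of the deepest cortical layers. The Nr4a genes are immediate early genes as well, which neurons switch on after stimulation. Nr4a3 encodes the related receptor NOR-1. Ntng2 encodes netrin-G2, a membrane-anchored protein of axons and synapses, and Gnb4 encodes a beta subunit of heterotrimeric G proteins. Cplx3 encodes a complexin that acts in synaptic vesicle release and, in mouse cortex, marks layer 6b. Synpr encodes synaptoporin, a protein of the synaptic vesicle membrane.

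In the coordinates of the deposited annotation, which names no genome build, the Nr4a2 cluster lay on chromosome 3 from 43111258 to 43128493 on the minus strand and was read by 130 probes. The Ntng2 cluster lay on the same chromosome from 7742531 to 7795758 (143 probes), and the Nr4a3 cluster on chromosome 5 from 63781739 to 63822890 (150 probes). The Gnb4 cluster lay on chromosome 2 from 118978965 to 119007877 (110 probes), and the Synpr cluster on chromosome 15 from 14558613 to 14885793 (140 probes). The Cplx3 cluster, on chromosome 8 from 62379502 to 62386264, had the fewest probes (30). All 6 were annotated as coding, and each covered a whole gene, so a signal cannot be assigned to 1 exon.

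RefSeq promoters (build GRCr8, minus strand) were matched for 5 of the 6 genes, and the 250 bases before the gene start of Nr4a2 and of the 2 genes that followed it most closely are shown, so that the upstream DNA of genes whose signals moved together can be compared. Capitals mark matches to the motifs searched.
Nr4a2 (chr3:62104888-62105137): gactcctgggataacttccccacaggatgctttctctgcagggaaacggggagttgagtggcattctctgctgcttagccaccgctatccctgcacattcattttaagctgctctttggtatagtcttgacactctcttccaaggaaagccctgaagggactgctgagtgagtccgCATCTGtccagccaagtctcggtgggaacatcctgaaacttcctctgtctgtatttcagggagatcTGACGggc
Ntng2 (chr3:32943822-32944071): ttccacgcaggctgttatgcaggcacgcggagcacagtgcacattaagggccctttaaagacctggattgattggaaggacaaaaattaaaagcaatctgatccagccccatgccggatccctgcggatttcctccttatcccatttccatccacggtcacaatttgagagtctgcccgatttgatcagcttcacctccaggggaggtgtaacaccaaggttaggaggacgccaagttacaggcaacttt
Cplx3 (chr8:66906201-66906450): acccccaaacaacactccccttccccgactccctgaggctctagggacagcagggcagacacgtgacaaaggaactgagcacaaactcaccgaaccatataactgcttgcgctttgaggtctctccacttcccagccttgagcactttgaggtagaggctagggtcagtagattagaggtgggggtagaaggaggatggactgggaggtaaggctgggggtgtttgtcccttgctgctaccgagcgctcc
The motifs were searched on both strands in windows of this length. The NBRE, the element bound by single Nr4a receptors (AAAGGTCA), occurred in 1.24% of 33469 promoters and in none of the 5 matched here. The cAMP response element (TGACGTCA, in 1.59% of promoters) and the AP-1 site (TGANTCA, in 6.34%) were also without a match in the 5 windows. The cAMP response element core (TGACG, in 18.2%) was matched once in the Nr4a2 promoter, 8 bases before the start, and an E-box of the type bound by Neurod factors (CAGATG, in 14.0%) once, read there as its reverse complement 74 bases before the start. The Ntng2, Cplx3, Gnb4 and Synpr windows held no match to any of the 5 motifs. These matches are a description of the letters in the window.

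The array signals are on a log2 scale, so that 1 unit is a 2-fold difference, and the signals of different genes are not compared with each other. The Nr4a2 signal ran from 6.77 in CT rat 6 to 13.60 in SS rat 3, a range of 6.83 log2 units or 114-fold. In CT rats it was 6.77 at the lowest, 10.31 at the median and 11.55 at the highest. In SR rats these values were 8.59, 10.04 and 12.79. In SS rats they were 8.81, 11.81 and 13.60. The rats of these 3 groups therefore overlapped over most of their range. The YSR rats read 13.59, 8.27 and 9.89, so that 1 of them was near the top of the whole series and 1 near the bottom. The YSS rats read 13.13, 12.92 and 12.19, and all 3 lay above the highest CT rat. By group the means rose in the order CT (9.85 ± 1.87 SD, n = 6), SR (10.39 ± 1.73, n = 6), YSR (10.58 ± 2.72, n = 3), SS (11.58 ± 1.71, n = 6) and YSS (12.74 ± 0.49, n = 3). Each pair of neighbours in that order differed by less than the SD of the more variable of the pair.

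**Figure D1:**
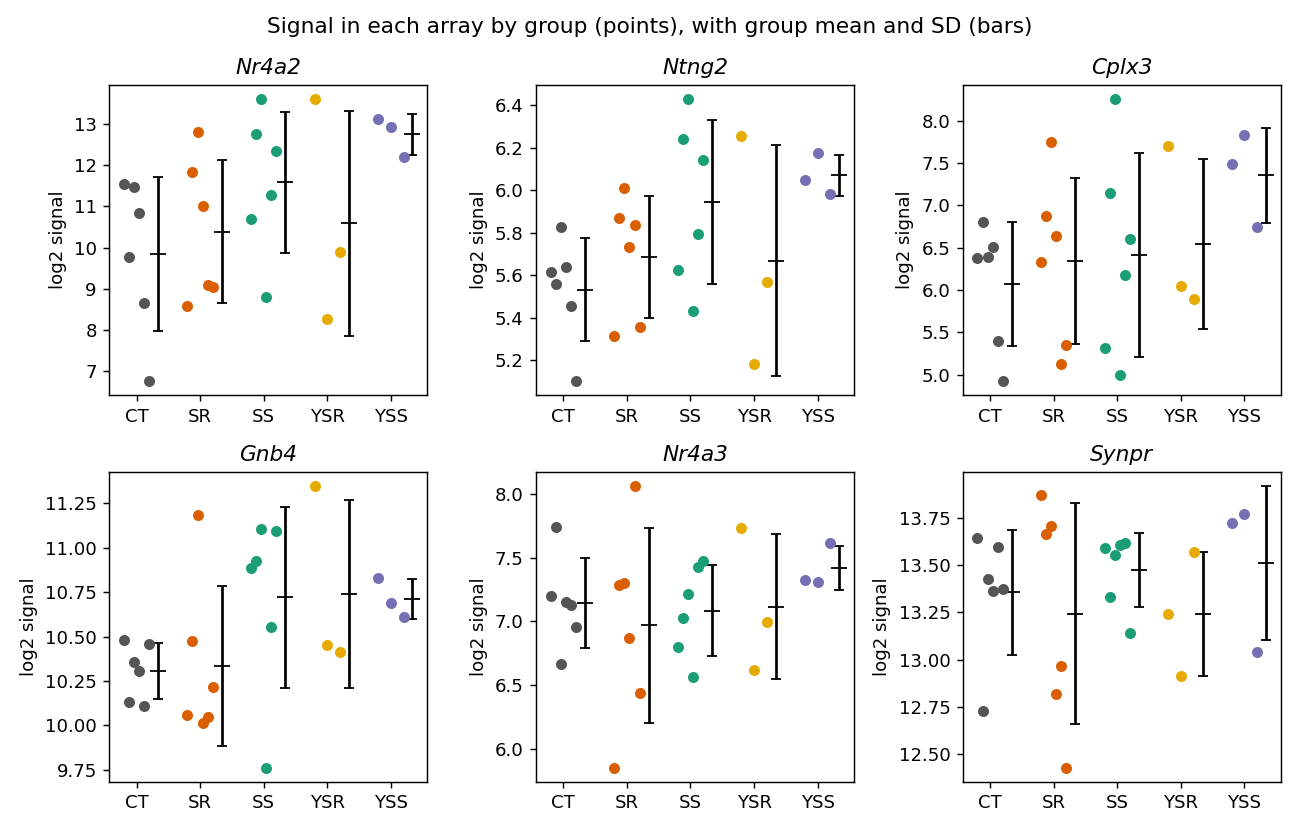
Signal of each of the 6 genes in each rat (points, log2 signal on the y axis) by group, with the group mean and SD as bars. The Nr4a2 panel spans 6.83 log2 units and the Ntng2 panel 1.33, and in both the 3 YSS rats lie above all 6 CT rats.

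Most of the variation in Nr4a2 was between rats of the same group. Groups accounted for 25.6% of its variance, against a median of 16.5% over all clusters. Its within-group SD was 1.81 log2 units, in comparison to a median of 0.195 over all clusters, and only 21 of the 68842 clusters varied more. Among the 9755 clusters whose CT mean lay above that of the bioB hybridization control, the study's mark of expression, Nr4a2 ranked 3 by this SD. Nr4a2, Gnb4 and Synpr were above the bioB mean of 9.27 in CT rats, whereas Nr4a3, Ntng2 and Cplx3 were below it. Cplx3 was the next most variable of the 6 genes, with a within-group SD of 0.957 (rank 200 of all clusters), followed by Nr4a3 at 0.508. Gnb4 (0.399), Synpr (0.396) and Ntng2 (0.330) varied less.

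The rat-to-rat variation of Nr4a2 was shared by 3 of the other 5 genes. Ntng2, Cplx3 and Gnb4 were higher in the rats in which Nr4a2 was higher, and Nr4a3 and Synpr did not pass the same test. The test was the slope of each cluster on Nr4a2 in limma with the 5 group means in the model, so that differences between groups, which had served to choose Nr4a2, did not enter. Adjusted p-values were taken over 68841 clusters. A positive slope passed an adjusted p of 0.05 in 554 clusters, or 0.805% of those tested, and a negative slope in 137, or 0.199%. The 24 rats correlated with each other at 0.988 to 0.996 over all clusters, and no pair of arrays was identical.

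Ntng2 followed Nr4a2 most closely. In CT rats its signal was 5.10 at the lowest, 5.59 at the median and 5.83 at the highest. In SR rats it was 5.31, 5.78 and 6.01, and in SS rats 5.43, 5.97 and 6.43. The lowest rat of all was CT rat 6 and the highest SS rat 3, the same rats as for Nr4a2. The YSR rats read 6.26, 5.18 and 5.57, in the order in which they ranked for Nr4a2, and the YSS rats read 6.05, 6.18 and 5.98. The deviations of the 2 genes from their group means correlated at r = 0.91 (Spearman rho = 0.89, n = 24), with two-sided permutation p of 1e-05, the smallest that 100000 permutations can give, and 2e-05. The slope was 0.167 ± 0.0183 (SE) log2 units of Ntng2 per log2 unit of Nr4a2, with a limma adjusted p of 4.2e-05. Only 7 of 68841 clusters had a higher r. Without the 2 rats farthest from the Nr4a2 median, CT rat 6 and YSR rat 2, r was 0.89. The lowest Ntng2 signals were near the array medians, which were 5.11 to 5.32, so its range of 1.33 log2 units lay close to the bottom of the scale.

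Cplx3 had the steepest slope of the 5 genes. Its signal ran from 4.93 in CT rat 6 to 8.26 in SS rat 3, a 10.05-fold range whose ends were again the lowest and the highest rat for Nr4a2. The low end of that range lay at the bottom of the scale. CT rat 6 and SS rat 4 (4.99) were below the array medians of 5.11 to 5.32. In CT rats it was 4.93, 6.38 and 6.81 at the lowest, the median and the highest. These values were 5.13, 6.48 and 7.75 in SR rats and 4.99, 6.39 and 8.26 in SS rats. The YSR rats read 7.70, 6.04 and 5.89, with YSR rat 1 far above the other 2 for this gene as for Nr4a2, and the YSS rats 7.49, 7.83 and 6.74. The relation to Nr4a2 had r = 0.86 and rho = 0.86 (n = 24, permutation p = 1e-05 for each), with a slope of 0.454 ± 0.0585 and a limma adjusted p of 0.000251. The r ranked 42 of 68841 clusters and was 0.87 without the 2 farthest rats.

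Gnb4 passed the same test with a looser relation. Its signal was 10.11 at the lowest, 10.33 at the median and 10.48 at the highest in CT rats, 10.02, 10.14 and 11.18 in SR rats and 9.76, 10.90 and 11.10 in SS rats. The YSR rats read 11.35, 10.45 and 10.41, and the YSS rats 10.83, 10.69 and 10.61. The CT rats thus stayed within a narrow band while Nr4a2 varied widely among them. Over all rats r was 0.72 and rho 0.70 (n = 24, permutation p = 0.00076 and 0.00153), and the slope was 0.159 ± 0.0339 with a limma adjusted p of 0.0209. Without CT rat 6 and YSR rat 2, r rose to 0.85. The call rested on single rats, since the adjusted p was 0.0648 without SS rat 4 and 0.171 without YSR rat 1, and by ranks it was 0.0692.

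Nr4a3, a related receptor of the family, did not pass the slope test on Nr4a2 at the adjusted threshold. Its signal ran from 5.85 in SR rat 1 to 8.06 in SR rat 5, a pair of rats with similar Nr4a2 signals (8.59 and 9.09). Its r was 0.42 (permutation p = 0.0786), its rho 0.53 (permutation p = 0.0281, n = 24) and its limma adjusted p 0.429, with rank 4020 of 68841. The median r over all clusters was -0.05. When 1 rat at a time was left out, the r of Nr4a3 ran from 0.32 to 0.63, the highest without SR rat 5. The limma adjusted p ran from 0.0726 to 0.824 in these fits. Synpr ran from 12.43 to 13.87 and had r = 0.17 and rho = 0.14 (n = 24, permutation p = 0.471 and 0.566) and a limma adjusted p of 0.838. A p above the threshold leaves a weaker relation possible for both genes at this number of rats.

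**Figure D2:**
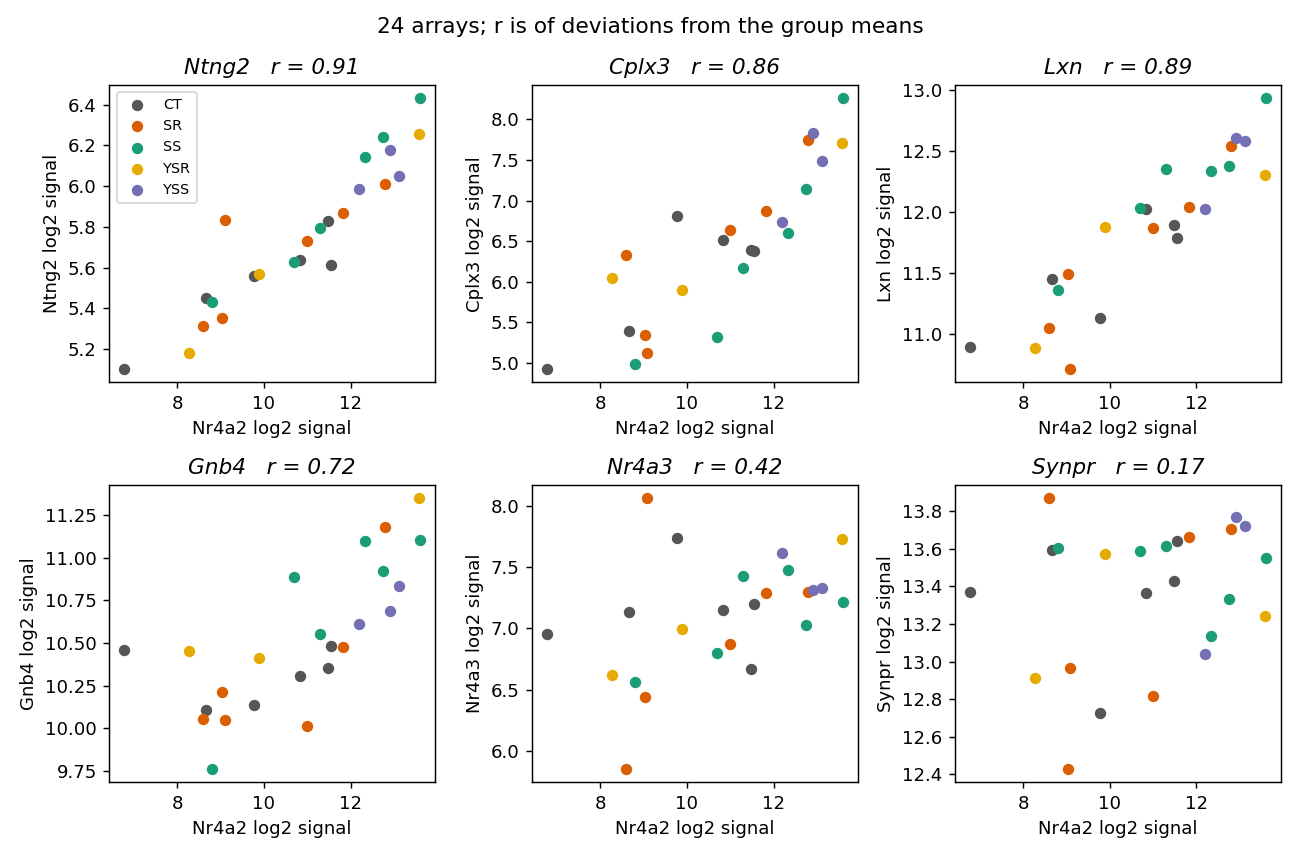
Log2 signal of Ntng2, Cplx3, Lxn, Gnb4, Nr4a3 and Synpr (y axes) against that of Nr4a2 (x axes), 1 point per rat, coloured by group, with r of the deviations from group means. Ntng2 (r = 0.91) and Cplx3 (r = 0.86) rise with Nr4a2 over the 24 rats, while Synpr (r = 0.17) does not.

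The relation was also measured inside each group of 6 rats, as a description. For Ntng2, r with Nr4a2 was 0.94 in CT, 0.80 in SR and 0.98 in SS rats, with rho of 0.83, 0.94 and 1. For Cplx3, r was 0.84, 0.86 and 0.94, and rho 0.43, 0.77 and 1. In limma fits of 1 group at a time these 2 genes passed in SS rats (adjusted p = 0.0449 and 0.0423), but not in CT (0.429 and 0.347) or SR rats (0.696 and 0.522). For Gnb4, r was 0.11 in CT, 0.79 in SR and 0.88 in SS rats, while rho was 0.43, 0.49 and 0.89, so that CT and SR rats were closer by ranks. For Nr4a3, r was -0.034, 0.37 and 0.68, and for Synpr 0.11, 0.35 and -0.46. The slopes in METH rats and in rats given saline were compared directly. The slope of Gnb4 was 0.235 in METH rats and 0.0909 in saline rats (unadjusted p = 0.0302), and that of Cplx3 was 0.575 and 0.346 (unadjusted p = 0.047), but in limma the adjusted p over all clusters was 0.931 for both. Among the 5 genes themselves, Ntng2 and Cplx3 correlated at r = 0.80, Ntng2 and Gnb4 at 0.67, and Gnb4 and Cplx3 at 0.66 (n = 24). Nr4a3 was nearer to Ntng2 (r = 0.60) than to Nr4a2 (r = 0.42), with no test of that difference, and Synpr correlated with none of them above 0.19.

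The genes whose signals were most like Nr4a2 were ranked by r among 4208 named genes with a mean above bioB, which leaves Ntng2, Cplx3 and Nr4a3 out of the ranking. The highest included Mgat5 (r = 0.91), Akap6 (0.90), Kif5c (0.90), Lxn (0.89), Rap1gds1 (0.88), B3gat1 (0.87), Arhgap44 (0.87), B3galt2 (0.87) and Nlk (0.87). Mgat5, B3gat1 and B3galt2 encode glycosyltransferases. Kif5c encodes a neuronal kinesin heavy chain, Akap6 an anchor for protein kinase A and Nlk a serine/threonine kinase. Lxn encodes latexin, a carboxypeptidase inhibitor known as a marker of the claustrum and lateral cortex in the rat. Gnb4 ranked 117 and Synpr 1670 of the 4208. The 5 lowest were Atf7ip (-0.81), U2surp (-0.73), Gna13 (-0.72), Ybx1 (-0.72) and Rps10-ps21 (-0.71), the last a ribosomal pseudogene whose probes may also read its parent gene. Over all clusters the median r was -0.05 and 42.4% of the values were above 0. Membership of the 10 highest depended on single rats, with 4 of the 10 left without CT rat 2 and 6 without SS rat 4.

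Over all clusters 0.805% passed with a positive slope on Nr4a2 and 0.199% with a negative slope. Of 13 measured other genes of the claustrum, the endopiriform nucleus and layer 6b, 6 passed with a positive slope. The other 7 did not pass, and none passed with a negative slope. The median r of the 13 was 0.62. Of the 6, Lxn alone had a CT mean above bioB. The steepest slopes were those of Tbr1 (0.619 ± 0.0790, r = 0.86), a transcription factor of deep-layer glutamatergic neurons, and Gng2 (0.370 ± 0.0681, r = 0.76), a G protein gamma subunit. Lxn, Ccn2, B3gat2 and Rxfp1 also passed, with r of 0.89, 0.83, 0.74 and 0.72. Ccn2 encodes a secreted matrix protein that marks layer 6b in rodents. The lowest slopes were those of Oprk1, the kappa opioid receptor gene (r = -0.18), and Tle4, a corepressor gene of layer 6 (r = -0.12), and Moxd1 (r = -0.11) and Nxph4, another layer 6b marker (r = 0.08), did not pass either. The list count fell from 6 to 3 without YSR rat 1.

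Of 13 genes of cortical pyramidal neurons, 6 passed with a positive slope, beside 0.805% of all clusters. The other 7 did not pass, and none passed with a negative slope. The median r of the 13 was 0.65. Of the 6, 1 (Slc17a7) had a CT mean above bioB. Slc17a7, the vesicular glutamate transporter of cortical neurons, had the steepest slope (0.876 ± 0.138, r = 0.81). Neurod6, Neurod2, Cux2 and Nrn1 also passed (r = 0.74, 0.73, 0.72 and 0.70). Rorb (r = -0.26) and Lamp5 (r = -0.07) had the lowest slopes and did not pass, both with CT means above bioB. The count was 6 with all rats, 4 without CT rat 6 or SS rat 4, and 2 without YSR rat 1. In these bulk samples more cells of a type and more RNA per cell cannot be told apart.

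The remaining lists showed few or no calls, beside 0.805% of all clusters that passed with a positive slope. Of 14 activity-induced genes, Fos (r = 0.71) and Bdnf (r = 0.71) passed, both named after their values were seen, and the median r was 0.20. Neither Fos nor Bdnf had a CT mean above bioB. Over the 24 rats Fos had a mean of 6.04 and Bdnf 4.80, the latter below the array medians of 5.11 to 5.32. Arc and Dusp1 had the highest slopes (r = 0.39 and 0.44) and Egr2 and Egr4 the lowest (r = -0.27 and -0.22), and the third Nr4a gene, Nr4a1, had r = 0.26. Both calls were lost without CT rat 6, SR rat 1, SS rat 4, YSR rat 1 or YSR rat 2. The list count stayed at 2 only without CT rat 2, CT rat 3, SR rat 4 or SR rat 5. It was 1 in each of the other leave-out fits. None of 11 genes of Nr4a partners and dopamine neurons passed. Of these 11, Rxrg alone had a CT mean above bioB, which limits what this list can show. The highest slopes there were those of Vip and Ret (r = 0.48 and 0.25), the lowest those of Rxrg and Rxra, which encode retinoid X receptors that pair with Nr4a2 (r = -0.41 and -0.15), and Th, the gene of the enzyme that starts dopamine synthesis, had r = 0.37. Of 10 interneuron genes Npy passed (r = 0.71), a call lost without CT rat 1, CT rat 3, SS rat 3, YSR rat 1 or YSR rat 2. Pvalb and Sst had the highest slopes of that list (r = 0.47 and 0.52), and Kit and Gad1 the lowest (r = -0.40 and -0.02).

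Genes of striatal medium spiny neurons, the principal cells of the tissue, had r below 0 with Nr4a2 in 11 of 11 cases, with a median of -0.25, and none passed the test. An r below 0 was common, since only 42.4% of all clusters had r above 0. The median r was -0.05 over all clusters and -0.13 over clusters with a CT mean above bioB. The lowest slopes were those of Rgs9 (r = -0.33) and Drd1, the D1 dopamine receptor gene (r = -0.37), and the highest those of Pdyn (r = -0.02) and Penk (r = -0.15). Of these genes 10 were above bioB in CT rats, Drd1, Drd2, Penk and Ppp1r1b among them, as the label of the tissue has it. All 11 choroid plexus genes also had r below 0 (median -0.17) with none passing, from Ttr and Kl at the lowest slopes (r = -0.27 and -0.16) to Kcnj13 and Prlr at the highest (r = -0.31 and -0.10).

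**Figure D3:**
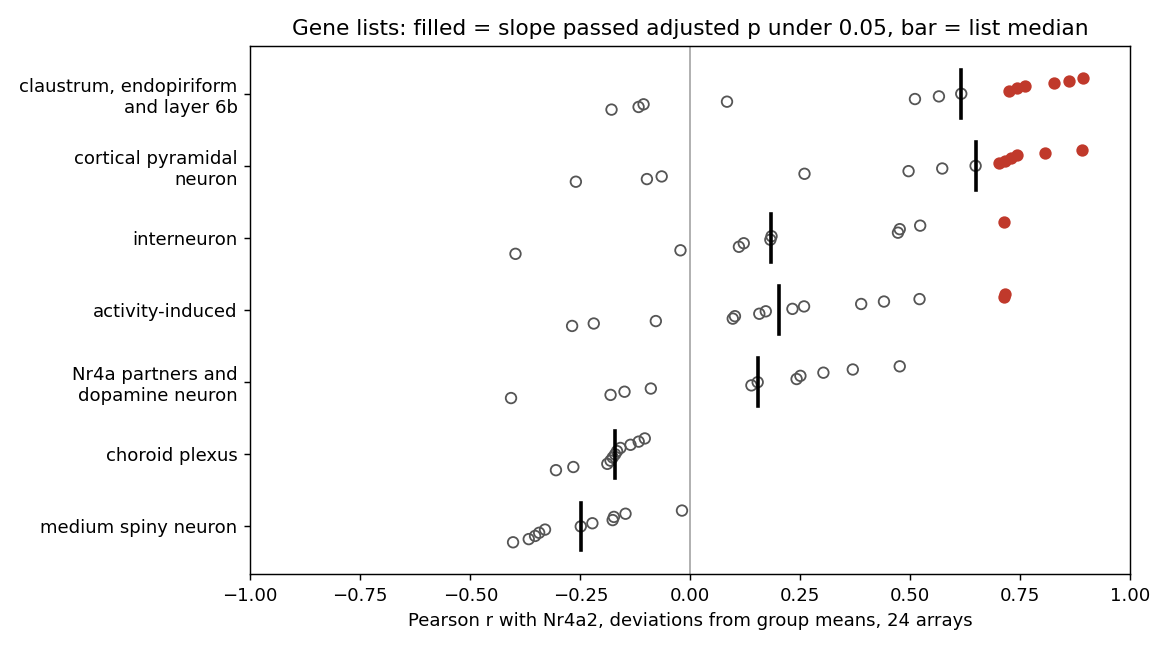
Pearson r with Nr4a2 (x axis, deviations from group means, 24 rats) of each gene of 7 lists (rows), filled where the slope passed an adjusted p of 0.05, with the list median as a bar. The claustrum list (6 of 13 filled, median 0.62) and the cortical list (6 of 13, median 0.65) reach furthest to the right, and all 11 medium spiny neuron genes lie below 0. Over all clusters 42.4% of the r values were above 0, and 0.805% of clusters passed with a positive slope.

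The mean of the cortical list moved with Nr4a2 from rat to rat. It was 8.42 ± 0.628 (SD, n = 6) in CT, 8.70 ± 0.497 in SR, 8.81 ± 0.708 in SS, 8.75 ± 0.801 in YSR and 9.18 ± 0.0635 in YSS rats, and its deviations from the group means correlated with those of Nr4a2 at r = 0.81 (n = 24). The mean of the claustrum list correlated at r = 0.96, and those of the medium spiny neuron and choroid plexus lists at -0.29 and -0.18. The slopes on Nr4a2 were therefore fitted again with the cortical mean as a covariate. None of the 5 genes passed then. The r was 0.72 for Ntng2 (limma adjusted p = 0.188), 0.60 for Cplx3 (0.304), 0.55 for Gnb4 (0.431), 0.42 for Synpr (0.686) and -0.14 for Nr4a3 (0.959). By r they ranked 63, 467, 819, 3690 and 51076 of 68841 clusters. The covariate itself correlated with Nr4a2, so less of the variation in Nr4a2 was left for this fit. With the cortical mean in the model the medium spiny neuron genes turned from r below 0 to r above 0 with Nr4a2 in 11 of 11 cases (median 0.37), and none passed. All 11 choroid plexus genes had r below 0 in this model (median -0.45). An r above 0 was found for 8 of 10 interneuron, 11 of 14 activity-induced, 7 of 11 Nr4a partner and dopamine neuron, and 5 of 13 cortical genes. None of these passed, and the share of all clusters with r above 0 in this model was not recorded. The choroid plexus mean as a covariate changed none of the 3 calls.

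With the cortical mean in the model 2 of 68841 clusters passed, Lxn and Saxo4. Lxn, at 164628564 to 164634764 on chromosome 2, kept r = 0.94, with a slope of 0.423 ± 0.0371 and a limma adjusted p of 1.27e-05. It passed in the same model when each of the 24 rats was left out in turn (r from 0.922 to 0.956, adjusted p from 3.07e-06 to 0.00052), although the number of clusters that passed beside it reached 109 in all without SS rat 3 and 194 without SS rat 4. The Lxn signal was 10.89 at the lowest, 11.62 at the median and 12.02 at the highest in CT rats, 10.71, 11.68 and 12.55 in SR rats, and 11.36, 12.35 and 12.93 in SS rats. Its group means were 11.53 ± 0.449 in CT, 11.62 ± 0.674 in SR, 12.23 ± 0.517 in SS, 11.69 ± 0.731 in YSR and 12.41 ± 0.331 in YSS rats, the order found for Nr4a2. Lxn correlated with Ntng2 at r = 0.76 and with Cplx3 at r = 0.78. Saxo4 had r = -0.85 and a limma adjusted p of 0.0208. Its call was lost, with Lxn alone passing, without CT rat 1, CT rat 2, CT rat 3, SR rat 1, SR rat 3, SS rat 6 or any YSR rat. Whether Saxo4 passed in the other leave-out fits was not recorded. Of the 13 genes of the claustrum list, 10 had r above 0 and 3 below 0 in this model, a split not recorded over all clusters. The median r of the 13 was 0.42, and Lxn alone passed. The 5 others that had passed before were B3gat2 (r = 0.65, adjusted p = 0.213), Ccn2 (0.60, 0.288), Tbr1 (0.50, 0.549), Gng2 (0.39, 0.731) and Rxfp1 (0.24, 0.903). The 3 below 0 were Fezf2 (-0.67), Moxd1 (-0.19) and Rprm (-0.17).

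**Figure D4:**
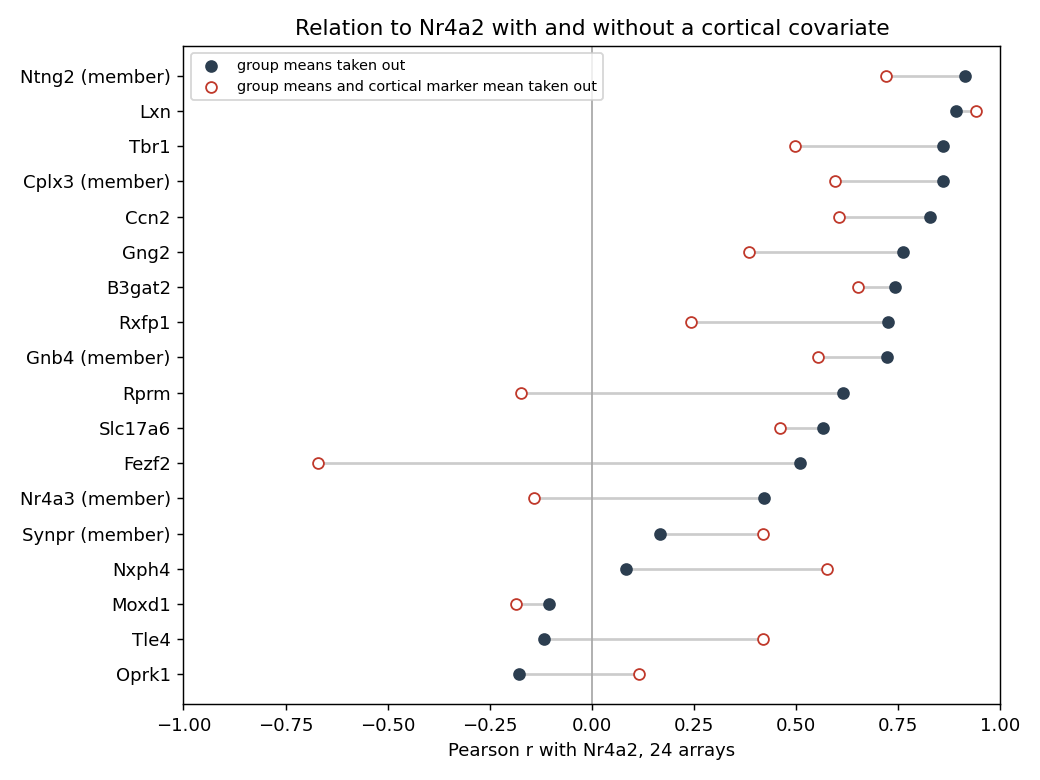
Pearson r with Nr4a2 (x axis, 24 rats) of the 5 other genes and of 13 further claustrum, endopiriform and layer 6b genes (rows), with group means taken out (filled) and with group means and the cortical marker mean taken out (open). Ntng2 moves from 0.91 to 0.72 and Cplx3 from 0.86 to 0.60, while Lxn stays at 0.89 and 0.94.

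The group comparisons of the 6 genes asked whether METH, punishment or uncontrolled shock was associated with their levels. No gene of the 6 and no cluster of 68842 (0%) passed an adjusted p of 0.05 in limma in any of the 5 pairwise comparisons other than YSSvsCT or in the test of whether SR and SS rats differed unequally from their yoked groups. The comparisons with CT share the same 6 control rats. Between 2453 and 4164 clusters had an unadjusted p under 0.05, depending on the comparison. In SSvsCT there were 3560, or 5.17% of those tested, and Ntng2 was among them, the 1 case for these 6 genes outside YSSvsCT. Ntng2 was higher in SS than in CT rats by 0.41 ± 0.179 (SE) log2 units, with an unadjusted p of 0.0302, a limma adjusted p of 0.936 and an exact permutation p of 0.0649 (6 against 6 rats, two-sided), and the groups overlapped. Nr4a2 was higher in SS than in CT rats by 1.73 ± 0.955, with a limma adjusted p of 0.965 and an exact permutation p of 0.128. Gnb4 was higher in SS rats by 0.41 ± 0.214 (exact permutation p = 0.0823) and in YSR rats by 0.43 ± 0.262 (exact permutation p = 0.0714).

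Between SR and CT rats Nr4a2 differed by 0.54 ± 0.955 (exact permutation p = 0.619), and between YSR and CT rats by 0.74 ± 1.17 (exact permutation p = 0.643). It was lower in SR than in SS rats by -1.19 on the log2 scale (exact permutation p = 0.258) and lower in YSR than in YSS rats by -2.16 (exact permutation p = 0.4, where 3 against 3 rats cannot go below 0.1). All of these but the last were smaller than the within-group SD of 1.81. Cplx3, Nr4a3 and Synpr gave exact permutation p-values of 0.3 or more in every comparison tested. Nr4a3 had group means from 6.97 ± 0.766 (SR) to 7.42 ± 0.172 (YSS), and Synpr from 13.24 ± 0.584 (SR) to 13.51 ± 0.407 (YSS), each with overlap between the groups in all 6 pairwise comparisons.

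YSS rats, the comparison in which Nr4a2 was already known to be high, are given as a description. The means in YSS rats lay above those in CT rats by 2.90 log2 units for Nr4a2, 1.29 for Cplx3, 0.54 for Ntng2, 0.40 for Gnb4, 0.28 for Nr4a3 and 0.16 for Synpr. For Nr4a2, Ntng2 and Gnb4 all 3 YSS rats were above all 6 CT rats, where 1.28% of all clusters were higher in YSS rats without overlap. For Cplx3 the lowest YSS rat (6.74) was just below the highest CT rat (6.81). The Nr4a2 difference was 2.28 without CT rat 6, and it was 1.04 with the cortical mean as a covariate. In the same comparison the median difference was 0.52 over the 13 claustrum and layer 6b genes, 0.65 over the 13 cortical genes, -0.52 over the 11 medium spiny neuron genes, -0.33 over the 11 choroid plexus genes, all of them lower in YSS rats, and -0.10 over the 14 activity-induced genes, beside 0.01 over all clusters. CT rat 6, the lowest for Nr4a2, had the highest choroid plexus mean of the CT rats (11.44, the others 6.55 to 7.22), and with that mean as a covariate the Nr4a2 difference was 2.84. The cortical list mean in YSS rats ran from 9.14 to 9.26, in comparison to 7.50 to 9.14 in CT rats. That mean correlated with Nr4a2 from rat to rat, so the change under the covariate cannot divide the Nr4a2 difference into parts. Whether the cortical signal has a part in that difference was not tested.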

How the data were processed

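The authors scanned 1 array per rat and summarized the raw files with the Affymetrix Expression Console (version not given in the sources used here, algorithm not stated) into deposited log2 signals for each transcript cluster. These values were used as given. The deposited annotation gave gene symbols, probe numbers and positions. Other deposited columns hold the authors' group means, fold changes and p-values, which were not used. The 24 rats were separate animals, and the labels name no batch.

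The 6 genes and the gene lists were chosen with earlier results of these data known. No p-value was given for YSS against CT rats, since Nr4a2 was chosen on that comparison. In limma 3.58.1 (R 4.3.3, lmFit and eBayes) all 68842 clusters other than controls were fitted on 5 group means, for the contrasts between groups, or on 5 group means and the Nr4a2 signal, for the slopes, with Benjamini-Hochberg adjustment over all clusters. Correlations of deviations from group means were tested by 100000 two-sided permutations of Nr4a2 within groups, and single contrasts by exact permutation of rats. Of the clusters, 17088 were matched to 1 gene of the RefSeq table by symbol and 3318 by gene identifier, 358 to several and 48078 to none. Of 16 genes listed for the claustrum and layer 6b, 2 were not matched and 1 was listed under an old and a new symbol. Vip stood in 2 lists. The rule for named genes took the 6 members, the 10 genes with the highest and the 5 with the lowest r with Nr4a2, and the 2 highest and 2 lowest slopes of each list, except that 2 genes the rule names are not reported here. Other genes named were chosen after their values were seen: those that passed in a list or with the cortical covariate, those with r below 0 there, and the markers Nr4a1, Th, Nxph4, Moxd1, Drd2 and Ppp1r1b. The scripts were tested on simulated data. Alternatives were quantile normalization, median centring, other priors, a bioB filter, marker means as covariates, ranks, single groups, a replicate block and leaving out each rat.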

Additional observations from a re-analysis of the deposited data

Results flagged for a closer look

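Synpr in CT rat 2 stood apart from the other control rats. Its log2 signal was 12.73, and the nearest CT rat had 13.36, a gap of 0.697 of the whole range of the 6 CT rats. The 6 genes in the 3 groups of 6 rats gave 18 sets of values that were examined in this way, and 1 was marked. Chance marks about 1 in 20 such sets.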

How the results depend on the processing

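The count of 3 genes following Nr4a2 did not change under quantile normalization, median centring, other variance priors, the choroid plexus covariate or without the group term. With the bioB filter it was also 3, but all 6 genes were kept there whatever their signal. Ntng2 and Cplx3 lay below bioB, so that setting could not remove them and does not test their calls against the filter. The count was 2 by ranks, in the 18 rats of CT, SR and SS and in the 6 SS rats, where Gnb4 lost its call. It was 2 to 3 when 1 rat at a time was left out. It was 0 with the cortical covariate, 0 in the 6 CT rats and 0 in the 6 SR rats, where fewer rats entered. The r of Nr4a3 turned to -0.14 with the cortical covariate and to -0.034 in CT rats, that of Synpr to -0.46 in SS rats, and the Cplx3 difference between SS and CT rats to -0.15 with the cortical covariate. The cause was not tested.

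Over all clusters, the 691 slopes called in either direction became 383 with the bioB filter and the 6 genes kept, and 457 by ranks. They became 1058 without the group term, 116 in CT, SR and SS rats and 2 with the cortical covariate. They became 454 without CT rat 3, 300 without CT rat 6, 1260 without SR rat 5, 154 without YSR rat 1 and 341 without YSR rat 2. The 15 list genes called were 3 when only clusters above bioB were tested, because the others were below it, and 5 to 16 when 1 rat at a time was left out, the 5 being without YSR rat 1. Of the 10 genes most like Nr4a2, 4 to 10 remained among the first 10 when 1 rat at a time was left out. The Nr4a2 difference between YSS and CT rats was 2.28 to 3.24. Between SS and CT rats, leaving out 1 rat gave -0.15 to 0.064 for Nr4a3, -0.020 to 0.63 for Cplx3 and -0.0080 to 0.18 for Synpr. Outside YSS against CT, which was not tested, none of the 6 genes passed an adjusted p of 0.05 in 9 other settings, and none met the study's fold and unadjusted p.

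Rats with the same replicate number in different groups did not deviate together (39 pairs, r from -0.687 to 0.642, median -0.115, with 6 of 24 rats closest to their own number). These pairs pool all groups. Yoked rats and their partners were not looked at apart, so the values cannot show whether yoked pairs share a number. The labels do not say that the numbers pair rats, and the numbers were not taken as pairs. With the replicate block, 3 genes still followed Nr4a2, the r of Synpr was -0.060, 417 clusters were called and the Nr4a2 difference between YSS and CT rats was 2.05. Each gene had 1 cluster, so no second cluster could be tried, and the unequal difference of SR and SS from their yoked groups could not be fitted in 2 groups alone. Signals near the array medians, as for Ntng2 and the low end of Cplx3, limit what can be measured.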
